A study of Mus musculus with 77 samples.

Results

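The genes described here are 6 targets of the hypoxia-inducible factors (HIF) that act outside glucose metabolism: *Ddit4*, *Bnip3*, *Higd1a*, *Ndrg1*, *Ankrd37* and *Car9*. They were chosen by name, with earlier results of these data known. Each is followed through all of its probes, which came to 9 of the 55681 probes tested, or 6 of the 21154 genes with a symbol. *Bnip3* had 3 probes, *Higd1a* had 2 and each other gene had 1. The samples were whole retinas of C57BL/6 mice, both retinas of a mouse pooled, hybridized on 77 two-color arrays together with universal mouse reference RNA. Oxygen-induced retinopathy (OIR) was produced by keeping whole litters with their dam in 75% oxygen from postnatal day (P) 7 to P12, while control litters were kept in chambers at 21% oxygen, and the mice of the later days then returned to room air. The retinas were taken on P12 at the end of the exposure (13 OIR and 12 control mice), on P17 (13 OIR and 12 control mice) or on P28 (13 OIR and 14 control mice). Oxygen was given by litter and the litter of each mouse is not stated, so the litter could not be used as a block.

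In cells with enough oxygen, prolyl hydroxylases mark the HIF alpha subunits for destruction. When oxygen is scarce the subunits persist, pair with the HIF beta subunit and bind short DNA elements near their targets. In OIR the high oxygen closes and prunes the growing retinal capillaries, the central retina becomes hypoxic once the mice breathe room air, and new vessels then grow and later regress. The genes described here serve the stress side of this program. *Ddit4* encodes an inhibitor of the growth kinase complex mTORC1. *Bnip3* and *Higd1a* encode mitochondrial proteins, the first a receptor that marks mitochondria for autophagy and the second an inner membrane protein that associates with the respiratory chain. *Ndrg1* is a stress gene named for its repression by N-Myc, *Ankrd37* encodes an ankyrin repeat protein, and *Car9* encodes a carbonic anhydrase of the cell surface that acts on pH.

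*Bnip3*, *Higd1a* and *Ankrd37* were the genes with at least 1 probe whose difference between OIR and control mice changed from P12 to P17. Their promoters are shown for that reason. The sequences are those of RefSeq on GRCm38.p6, 250 bases up to the transcription start, 5′ to 3′ on the strand of the gene. Capitals mark the core letters of the HIF binding element, ACGTG or GCGTG, and the same letters on the other strand, CACGT or CACGC. *Bnip3* lies on the minus strand at chr7:138909507-138909756, *Higd1a* on the minus strand at chr9:121857797-121858046 and *Ankrd37* on the minus strand at chr8:45999851-46000100.
Bnip3: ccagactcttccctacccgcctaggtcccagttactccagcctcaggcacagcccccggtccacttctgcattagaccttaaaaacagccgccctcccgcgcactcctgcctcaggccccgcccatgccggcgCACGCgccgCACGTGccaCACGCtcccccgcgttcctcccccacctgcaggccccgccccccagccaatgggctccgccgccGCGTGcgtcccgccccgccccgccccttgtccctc
Higd1a: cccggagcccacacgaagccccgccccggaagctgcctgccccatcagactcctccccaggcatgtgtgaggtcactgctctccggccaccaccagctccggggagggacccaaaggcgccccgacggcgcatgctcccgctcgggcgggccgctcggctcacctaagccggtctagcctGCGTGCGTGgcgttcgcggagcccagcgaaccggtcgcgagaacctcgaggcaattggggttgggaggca
Ankrd37: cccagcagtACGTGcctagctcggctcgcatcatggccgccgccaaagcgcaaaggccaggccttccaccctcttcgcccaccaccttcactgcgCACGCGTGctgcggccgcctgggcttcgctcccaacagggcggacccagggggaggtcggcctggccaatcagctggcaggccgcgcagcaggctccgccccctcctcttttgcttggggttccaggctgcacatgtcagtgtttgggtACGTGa

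The *Bnip3* promoter held 5 matches, of which one pair overlaps in the palindrome CACGTG, and the *Ankrd37* promoter held 4, of which one pair overlaps. The *Higd1a* promoter held 2 overlapping matches that begin 70 and 66 bases before the start. *Ddit4* had 2 matches and *Car9* had 1, which begins 18 bases before the start. At least 1 match stood in 38.6% of the 32851 promoters of this length in the table, and at least 3 matches in 6.6%. A match is only a string of letters, and binding was not measured here. *Ndrg1* was not among the promoters used.

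The arrays varied in depth, with 13764 to 34305 probes detected well above background in Cy3. The group medians lay between 20045 and 21095 probes on P12 and P17 and at 32167 and 32884 probes on P28. The sample labels place the retina in Cy5, yet 3 rod genes (*Pde6b*, *Sag*, *Gnat1*) had more signal in Cy3 on every array, by at least 4.18 on the log2 scale in the deposited ratios. Cy3 was therefore taken as the retina, against the labels, and every value below is a log2 ratio of retina over reference. Opposite signs would follow if the labels were right. Rod markers were far above the reference in all 6 groups, with a mean log2 ratio over 5 genes between 3.54 and 6.31 on single arrays. Since whole retinas were used, fewer cells of a type and less RNA per cell cannot be told apart. All 9 probes were unsaturated and present on all arrays, and 7 were well above background on all 77. The exceptions were *Car9*, on 51 arrays, and a dim probe of *Bnip3*, the third, on 44.

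*Bnip3* was the most strongly overexpressed of the 6 genes in OIR mice on P17. The log2 ratio of its brightest probe ran from −1.32 over a median of −1.04 to −0.60 in control mice and from −0.92 over −0.19 to 0.44 in OIR mice. The groups overlapped only at their edges, as 13 of 13 OIR mice lay above the control median and 12 above the highest control mouse. The difference was 0.84 (SE 0.108, 1.79-fold, adjusted *p* = 2.93e-05).

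A second *Bnip3* probe gave the same picture, with a range from −1.39 to −0.72 and a median of −1.22 in control mice. In OIR mice it ranged from −0.98 to 0.27 with a median of −0.35. The difference of 0.81 (SE 0.120, adjusted *p* = 0.000228) had 11 of 13 OIR mice above the highest control mouse. The dim probe differed by 0.21 (SE 0.0523) in the same direction, and its adjusted *p* of 0.0502 just missed the threshold of 0.05. It was well above background on 5 of 12 control and 8 of 13 OIR arrays that day, and the offset of 50 added to both channels shrinks the ratio of so dim a probe. The dim probe passed under 3 of 7 alternatives (scan day as a block, no background subtraction and dim probes left out), and over all 7 the adjusted *p* ran from 0.0158 to 0.492. The filter for dim probes kept it only through the OIR mice, in which it was higher, so that pass adds no support. The slide as a block gave 0.0827, and the deposited ratios gave a difference of 0.83 (adjusted *p* = 0.383).

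On P12, directly after the high oxygen, *Bnip3* lay low in both groups. Its brightest probe ran from −2.15 over −1.70 to −1.06 in control mice and from −2.36 over −1.63 to −1.13 in OIR mice. These ranges coincided almost fully, and the difference of −0.05 had a 95% interval from −0.35 to 0.26 (adjusted *p* = 0.9997). On P28 the ranges were −0.72 over −0.49 to −0.21 in control mice and −0.76 over −0.47 to −0.08 in OIR mice. The groups again overlapped, with a difference of 0.02 and an interval from −0.12 to 0.16 (adjusted *p* = 0.922). The second probe differed by 0.17 on P28 (interval 0.01 to 0.32, *p* = 0.0338 in the limma fit, adjusted *p* = 0.659). The third, dim probe differed by −0.06 (interval −0.17 to 0.05, adjusted *p* = 0.742).

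The change of the OIR effect was tested in one model of all 6 groups. From P12 to P17 it was 0.89 for the brightest *Bnip3* probe (SE 0.161, adjusted *p* = 0.000316) and 0.82 for the second (SE 0.167, adjusted *p* = 0.00245). The third, dim probe had 0.10 (SE 0.0868, adjusted *p* = 0.9998) and passed under 0 of 7 alternatives. From P17 to P28 the effect fell by 0.82 for the brightest probe (SE 0.158, adjusted *p* = 0.00188) and the second had −0.64 (SE 0.164, adjusted *p* = 0.0616). Both changes share the P17 mice. With the deposited ratios the P17 to P28 change of the brightest probe was −0.85 and missed the threshold (adjusted *p* = 0.0597), as did the retina channel alone with −0.52 (adjusted *p* = 0.191). That of the second probe passed under 4 of 7 alternatives, among them the slide as a block (−0.78, adjusted *p* = 0.00276) and the scan day as a block (−0.87, adjusted *p* = 0.000297), with a range from 0.000297 to 0.333.

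In control mice *Bnip3* rose with age. The brightest probe rose by 0.62 from P12 to P17 (SE 0.116, adjusted *p* = 0.000366) and by 0.58 from P17 to P28 (SE 0.112, adjusted *p* = 0.000135). For this probe the mean of the OIR mice on P17, −0.20 ± 0.343 (SD, n = 13), was the highest of the 6 groups. Next in order came OIR mice on P28 with −0.43 ± 0.190 (n = 13) and control mice on P28 with −0.46 ± 0.172 (n = 14), and these 3 neighbors did not lie further apart than the larger of their SDs. Control mice on P17 had −1.04 ± 0.180 (n = 12), further below than the SD, and both P12 groups stood lowest. With the deposited ratios of the brightest probe, OIR mice had a mean of 0.11 on P17 and of 0.14 on P28. The second probe was also highest in OIR mice on P17 (−0.34), but its deposited means were −0.27 on P17 and −0.26 on P28. The third, dim probe was highest in control mice on P28 (−0.32), against −0.36 in OIR mice on P17.

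*Higd1a* was the other gene overexpressed in OIR mice on P17. Its brightest probe ran from −1.38 over −1.21 to −0.64 in control mice and from −1.16 over −0.51 to −0.07 in OIR mice. The groups overlapped, since 13 of 13 OIR mice exceeded the control median but 8 exceeded the highest control mouse. The difference was 0.54 (SE 0.110, 1.46-fold, adjusted *p* = 0.00801).

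The second *Higd1a* probe ran from −1.75 over −1.57 to −1.25 in control mice and from −1.80 over −1.25 to −0.37 in OIR mice. Of the 13 OIR mice, 12 lay above the control median and 6 above the highest control mouse. The difference of 0.40 (SE 0.119) did not pass (adjusted *p* = 0.120). It passed under 1 of 7 alternatives, the scan day as a block (0.50, adjusted *p* = 0.00695), and the other adjusted *p* values lay between 0.0512 and 0.112.

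On P12 the *Higd1a* values ran from −1.48 over −1.26 to −0.71 in control mice and from −1.66 over −1.34 to −0.98 in OIR mice. On P28 they ran from −1.39 over −1.16 to −0.96 in control mice and from −1.25 over −1.08 to −0.95 in OIR mice. Both days showed overlapping groups, with differences of −0.07 (interval −0.25 to 0.11) and 0.08 (interval −0.01 to 0.18). The OIR effect of the brightest probe rose by 0.62 from P12 to P17 (SE 0.122, adjusted *p* = 0.00151). For the second probe this change was 0.32 (SE 0.179, adjusted *p* = 0.9998) and passed under 0 of 7 alternatives. From P17 to P28 the effect of the brightest probe changed by −0.46 (SE 0.120, adjusted *p* = 0.0760). That step passed under 3 of 7 alternatives, with the slide (−0.55, adjusted *p* = 0.00172) or the scan day (−0.60, adjusted *p* = 0.000627) as a block and with dim probes left out. Its adjusted *p* reached 0.422 in the retina channel alone. In control mice the brightest *Higd1a* probe differed by 0.13 from P12 to P17 and by −0.07 from P17 to P28 and passed in neither step. The second probe differed by 0.14 and then by 0.32 (SE 0.124, adjusted *p* = 0.0777), and the later step passed under 6 of 7 alternatives, with an adjusted *p* between 0.00584 and 0.0576. In the order of the 6 group means of the brightest probe only the OIR mice on P17 stood apart. They lay 0.53 above the next group against a larger SD of 0.299, while all other neighbors lay within their SDs. With the deposited ratios of this probe the OIR mice had −0.39 ± 0.410 on P17 and −0.69 ± 0.136 on P28, which is within the larger SD. For the second probe the OIR means on P17 and P28 were nearly equal, at −1.136 and −1.133.

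**Figure D1:**
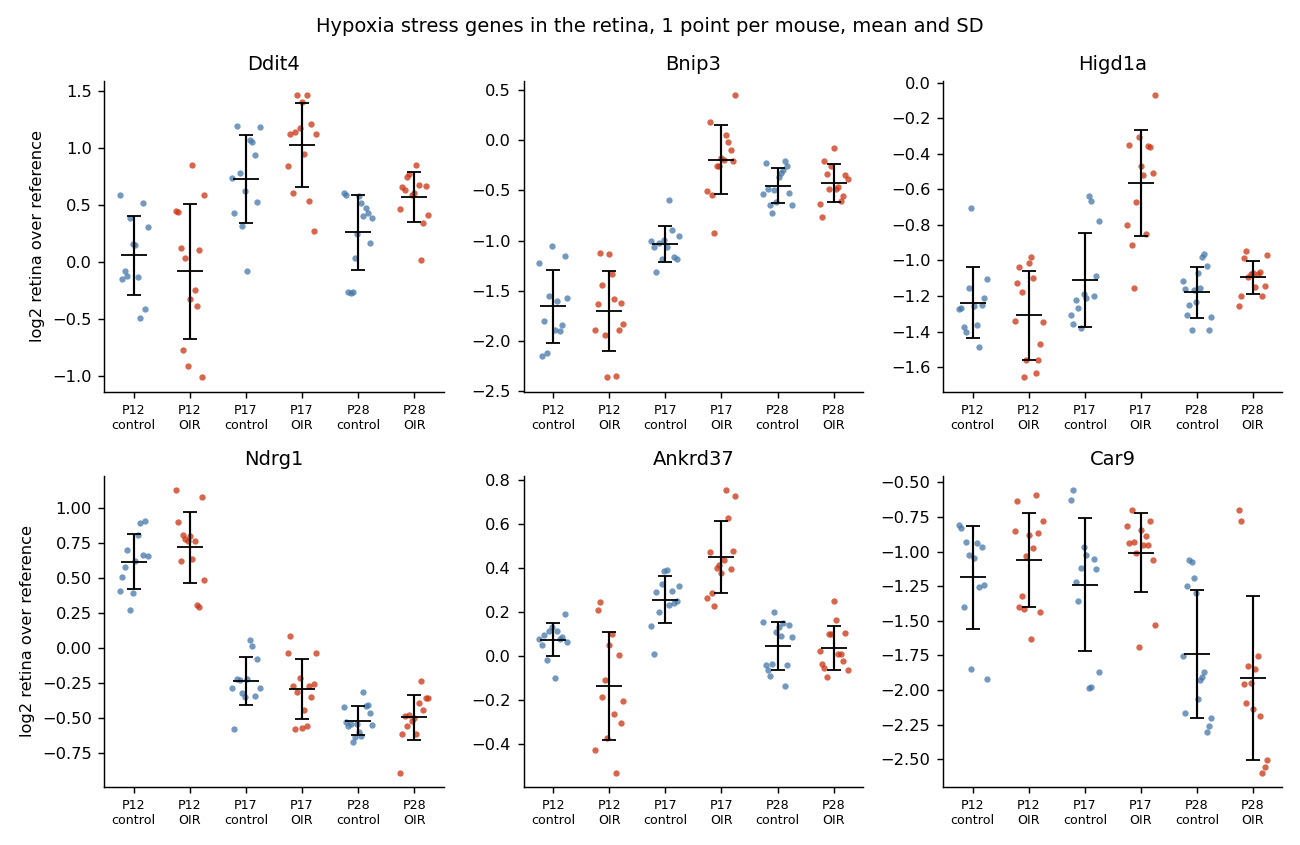
Log2 ratio of retina over reference (vertical axis) of the brightest probe of each gene in the 6 groups (horizontal axis), with 1 point per mouse, control mice in blue, OIR mice in red, and the mean and SD in black. *Bnip3* and *Higd1a* stand above the control mice in the P17 OIR group, with 12 and 8 of 13 mice above the highest control mouse, and *Ndrg1* drops between P12 and P17 in both groups.

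**Figure D2:**
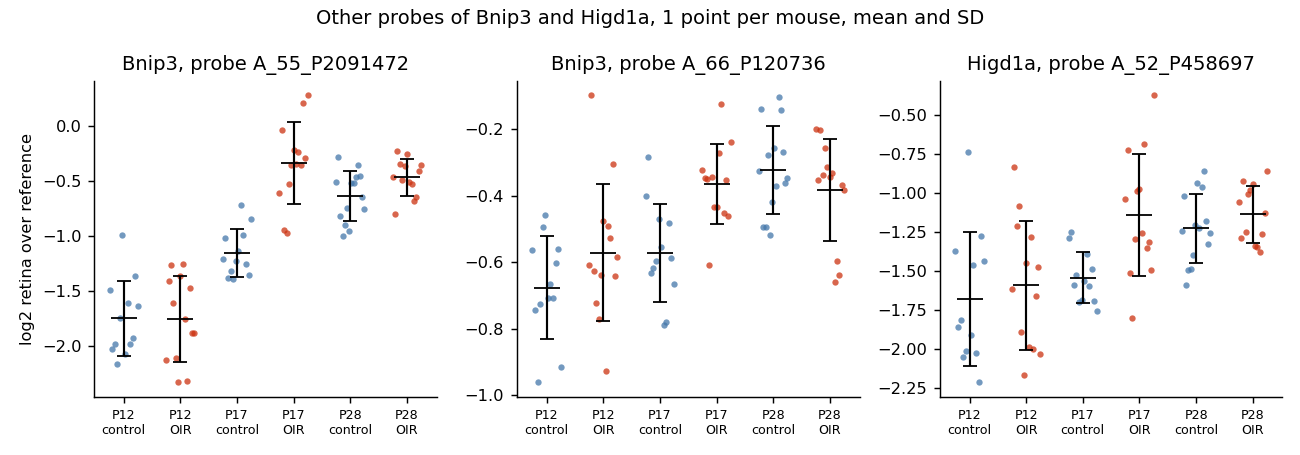
Log2 ratio of retina over reference (vertical axis) of the remaining *Bnip3* probes and the remaining *Higd1a* probe in the 6 groups (horizontal axis), drawn with 1 point per mouse and the mean and SD. On P17 the OIR means lie above the control means for each of the 3 probes, by 0.81, 0.21 and 0.40.

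*Ankrd37* had a small difference on P12 and another of opposite sign on P17, and neither passed on its own. On P12 its ratio ran from −0.10 over 0.08 to 0.19 in control mice and from −0.53 over −0.19 to 0.25 in OIR mice. The OIR mice spread widely around the narrow control group, with 10 of 13 below the control median. The difference was −0.21 (SE 0.0723, *p* = 0.00736 in the limma fit) and did not pass over all probes (adjusted *p* = 0.9997).

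On P17 the ratio of *Ankrd37* ran from 0.01 over 0.27 to 0.39 in control mice and from 0.23 over 0.41 to 0.75 in OIR mice, 9 of which lay above the highest control mouse. The difference of 0.19 (SE 0.0548) had an adjusted *p* of 0.100. It passed with the deposited ratios (0.29, adjusted *p* = 0.0112), without background subtraction (0.22, adjusted *p* = 0.0458) and in the retina channel alone (0.22, adjusted *p* = 0.0327). The change of the effect from P12 to P17 did pass, with 0.41 (SE 0.0821, adjusted *p* = 0.00207).

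By P28 the *Ankrd37* ranges were −0.14 to 0.20 in control and −0.10 to 0.25 in OIR mice, with a difference of −0.01 (interval −0.09 to 0.07). In control mice the step from P12 to P17 was 0.18 (SE 0.0592, adjusted *p* = 0.139) and passed under 1 of 7 alternatives. Control mice decreased by 0.21 from P17 to P28 (SE 0.0571, adjusted *p* = 0.00756). The mean of this gene stood highest on P17 in both groups. Its P17 OIR and P17 control means were each further from the next lower group than the larger SD, and the lower 4 groups were not.

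*Ddit4* was not differentially expressed on any of the 3 days. On P17 its ratio ran from −0.08 over 0.75 to 1.19 in control mice and from 0.27 over 1.12 to 1.46 in OIR mice. The difference of 0.29 (SE 0.147) was smaller than the spread within either group (adjusted *p* = 0.501). On P12 the difference was −0.14 (interval −0.53 to 0.25), and the OIR mice had the widest spread of all groups, from −1.01 over 0.04 to 0.85.

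On P28 *Ddit4* ran from −0.27 over 0.39 to 0.60 in control mice and from 0.02 over 0.63 to 0.85 in OIR mice. With 7 of 13 OIR mice above the highest control mouse, the difference was 0.31 (SE 0.104, *p* = 0.00609 in the limma fit, adjusted *p* = 0.542). Within the 3 slides that carried both groups on P28 it was smaller, between 0.10 and 0.21, and OIR mice were higher on each. In control mice *Ddit4* changed with age. It rose by 0.67 from P12 to P17 (SE 0.157, adjusted *p* = 0.00846) and fell by 0.47 from P17 to P28 (SE 0.151, adjusted *p* = 0.0279). The fall missed the threshold with the slide as a block (−0.34, adjusted *p* = 0.0726), with the deposited ratios (−0.39, adjusted *p* = 0.172) and in the retina channel alone (−0.32, adjusted *p* = 0.191). No neighbors in the order of the 6 *Ddit4* means lay further apart than the larger of their SDs.

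*Ndrg1* changed with age in the control mice and passed no test between OIR and control mice. In control mice its ratio ran from 0.27 over 0.64 to 0.91 on P12 and from −0.58 over −0.26 to 0.06 on P17. These ranges did not overlap, and the drop of 0.86 (SE 0.0763, adjusted *p* = 3.02e-13) had the third smallest *p* of all probes in that comparison, in which 1.28% of probes were called. In OIR mice it ran from 0.29 over 0.77 to 1.13 on P12 and from −0.58 over −0.27 to 0.09 on P17, again without overlap.

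From P17 to P28 *Ndrg1* of control mice decreased by 0.28 (SE 0.0735, adjusted *p* = 0.00478), to a range from −0.67 over −0.54 to −0.31. In the retina channel alone this step was −0.14 (adjusted *p* = 0.226). The OIR effect was 0.10 on P12 (interval −0.08 to 0.29), −0.06 on P17 (interval −0.21 to 0.10) and 0.02 on P28 (interval −0.08 to 0.13). Among its ordered group means only the step between the P12 groups and the P17 groups exceeded the larger SD.

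*Car9* lay near background in the retina and was measured less well than the other genes. It was well above background on 8 of 12 control and 3 of 13 OIR arrays on P12, on 7 of 12 and 10 of 13 on P17, and on 11 of 14 and 12 of 13 on P28. On P17 the ratio ran from −1.99 over −1.12 to −0.56 in control mice and from −1.69 over −0.94 to −0.70 in OIR mice. The difference of 0.23 (interval −0.08 to 0.55) did not pass (adjusted *p* = 0.615), and the differences of 0.12 on P12 (interval −0.16 to 0.41) and −0.18 on P28 (interval −0.58 to 0.23) did not either. Control mice decreased by 0.50 from P17 to P28 (SE 0.169, adjusted *p* = 0.0382), which was −0.13 in the retina channel alone (adjusted *p* = 0.272). The call was also lost with the deposited ratios (−0.73, adjusted *p* = 0.0533) and with other samples in the fit (adjusted *p* = 0.0720), and the step was −0.24 with the slide and −0.27 with the scan day as a block. In the order of its 6 means only the P28 and P17 control groups, at −1.74 and −1.24, lay further apart than the larger SD.

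Over the 9 probes, 0 were called on P12, where 0.0233% of all probes were called, and 1 (*Ankrd37*) had an unadjusted *p* under 0.05 in limma. On P17, 3 probes of 2 genes were higher in OIR mice and 0 were lower, against 1.13% of all probes called and 0.803% called higher. The median difference of the 9 probes was 0.29 and that of all probes 0.001, and 6 probes had an unadjusted *p* under 0.05. On P28 the count was again 0, against 0.0611% of all probes, with 2 (*Ddit4* and the second *Bnip3* probe) at an unadjusted *p* under 0.05. For the change of the effect from P12 to P17, 4 probes of 3 genes were called, all higher, against 0.48% of all probes in either direction and 0.436% higher. From P17 to P28 it was 1 probe, lower, against 0.278%. In control mice 4 probes were called from P12 to P17, 3 of them higher, against 1.28%. From P17 to P28 it was 7, 3 higher and 4 lower, against 13.4% of all probes.

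**Figure D3:**
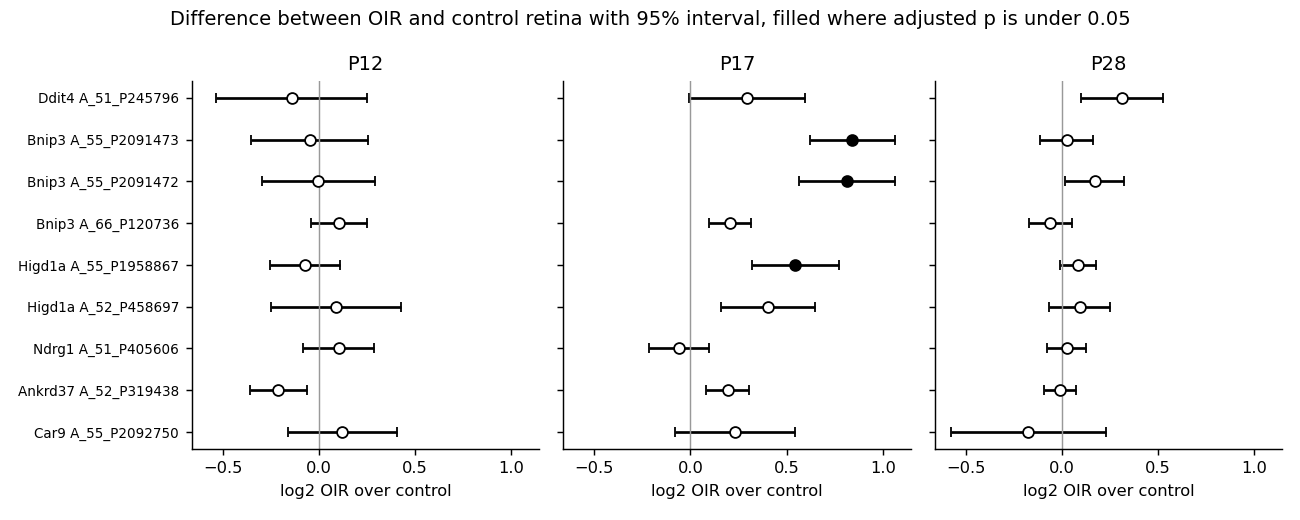
Difference between OIR and control mice on the log2 scale (horizontal axis) for each of the 9 probes (vertical axis) on P12, P17 and P28, with the 95% interval and filled symbols where the adjusted *p* was under 0.05. The 3 filled symbols, 2 probes of *Bnip3* and 1 of *Higd1a*, all stand on P17 at 0.84, 0.81 and 0.54.

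The arrays came from 11 slides and were scanned on 4 days. Within the 6 slides that carried both groups on P17, OIR mice were higher on 6 of 6 for the brightest *Bnip3* probe, by 0.49 to 1.23, and for the brightest *Higd1a* probe, by 0.43 to 0.77. *Ddit4* and *Ankrd37* were higher on 5 of 6 slides and *Car9* on 4 of 6. *Ndrg1* was higher on 2 of 6. In the reference channel alone, 0 of the 9 probes differed on any day by limma, and 1 had an unadjusted *p* under 0.05, the brightest *Higd1a* probe on P28 with 0.10 (*p* = 0.0258 in the limma fit).

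Other HIF targets were set beside these genes, 37 in all from 4 lists, each by its brightest probe. The lists were chosen with earlier results of these data known. The study itself names *Apln* and *Adm* among its most overexpressed retinal genes on P17. The counts are therefore a description and no independent test. On P17, 12 of the 37 were higher in OIR mice and 0 lower, with a median difference of 0.26, while 1.64% of all genes were higher and their median was −0.003. Secreted and matrix genes had 5 of 11 higher, among them the vessel peptides *Apln* (1.42) and *Adm* (1.31), the collagen crosslinking enzyme *Loxl2* (1.12) and the vessel growth factor *Vegfa* (0.97). Genes of glucose use and mitochondria had 5 of 14 higher, with *Ndufa4l2*, a respiratory chain protein of hypoxic cells, at 2.03 and the lactate exporter *Slc16a3* at 1.17. The mitochondrial gene *Fam162a* (0.75) and the glycogen synthase *Gys1* (0.74) also passed. Oxygen sensing and chromatin genes had 1 of 6 higher, the repressor *Bhlhe40* (0.41), and the other stress genes 1 of 6, the heme oxygenase *Hmox1* (1.69). The *Bnip3* difference of 0.84 and the *Higd1a* difference of 0.54 lay within this range. On P12 0 of the 37 passed, and on P28 only *Ndufa4l2* did (0.79).

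**Figure D4:**
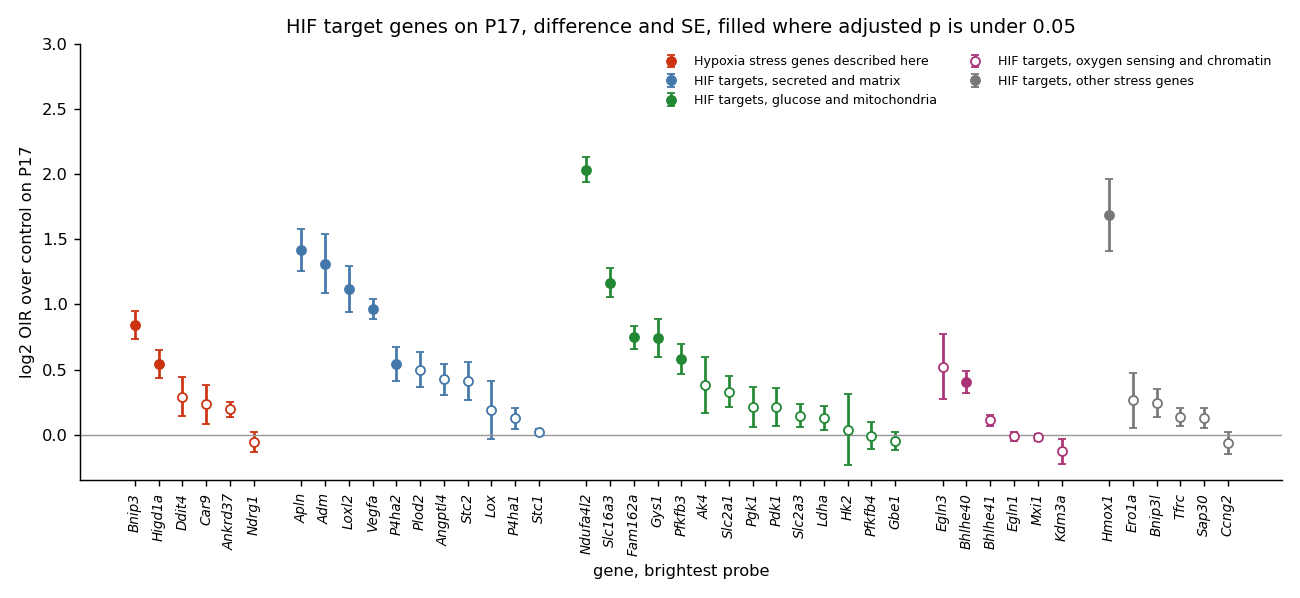
Difference between OIR and control mice on P17 on the log2 scale (vertical axis) for the 6 genes described here and the 37 other HIF targets (horizontal axis), with the SE and filled symbols where the adjusted *p* was under 0.05. *Bnip3* and *Higd1a* are the 2 filled symbols of the first group, and 12 of the other targets are filled, all above 0.

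Close relatives of the 6 genes moved in both directions or passed no test. Of all genes, 1.64% were called higher on P17 and a smaller share was called lower. Of 11 paralogues, *Higd1b* was higher on P17 (0.96, SE 0.142), *Ndrg4* (−0.78, SE 0.135) and *Car2* (−0.65, SE 0.153) were lower, and 8 passed in neither direction. *Higd1b* was also the only paralogue called on P12, where it was lower (−0.62, SE 0.102), as were 13 of all 21154 genes. *Bnip3l*, the closest relative of *Bnip3*, was not called on any day. Of 12 genes of the mTORC1 axis, on which *Ddit4* acts, only the translation repressor *Eif4ebp1* was called on P17 (1.04, SE 0.231). Of 15 genes of mitophagy and the BCL2 family 0 were called on P17 by limma, and the same held for 10 genes of the integrated stress response. Of 8 glucocorticoid-responsive genes *Tsc22d3* was lower (−0.40, SE 0.0655).

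Of 45 cell type markers 6 were called on P17. Of these, 4 were higher, against 1.64% of all genes called higher. The other 2 were lower, and of all genes a smaller share was called lower than higher. The part of these markers in the results for *Bnip3* and *Higd1a* was not tested. The mean of 5 mural cell markers ran from −1.01 to −0.46 in control and from −0.68 to −0.11 in OIR mice, with 1 of 5 called higher (*Cspg4*). The mean of 5 microglia markers ran from −0.34 to −0.04 and from −0.16 to 0.48, with 2 of 5 higher (*Aif1* and *Csf1r*). Red blood cell markers ran from 0.32 to 0.93 and from 0.51 to 1.89, with 1 of 4 higher (*Hba-a1*). All 5 Mueller glia markers had negative differences with a median of −0.44 and 0 called, with means from 1.75 to 3.61 in control and 2.01 to 3.10 in OIR mice. Endothelial markers ran from 0.15 to 0.90 and from 0.48 to 0.85, also with 0 of 5 called. All 5 pigment epithelium markers had negative differences too, with a median of −0.54 and means from 0.41 to 1.54 in control and 0.30 to 0.97 in OIR mice, and 1 was called lower (*Rpe65*). Lens markers had 1 of 5 called lower (*Bfsp2*), and rod and oligodendrocyte markers had 0.

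Some of the genes also varied together among mice of one group. Of 15 pairs, with each gene by its brightest probe, 8 passed a permutation test of the Pearson *r* of their deviations after adjustment. Of these, 5 had a positive and 3 a negative *r*. All 5 pairs with *Car9* had a negative *r*. Among the other probes, *r* with *Car9* was −0.40 for the second *Bnip3* probe and −0.22 for the second *Higd1a* probe. For the third, dim *Bnip3* probe it was 0.31, and −0.10 with the slide subtracted. The permutations did not hold the slide fixed. With the slide subtracted, *r* went from 0.32 to 0.08 for *Ddit4* and *Higd1a* and from −0.40 to −0.18 for *Ndrg1* and *Car9*. It went from 0.54 to 0.56 for *Bnip3* and *Ankrd37* and from 0.37 to 0.46 for *Ankrd37* and *Higd1a*. By Spearman rho *Ndrg1* and *Higd1a* did not pass (adjusted permutation *p* = 0.0558). After the group means were subtracted, the deviations of *Bnip3* and *Higd1a* over the 77 mice had a Pearson *r* of 0.73 and a Spearman rho of 0.72 (permutation *p* = 1e-05 each, the smallest that 100000 permutations within groups can give, adjusted over 15 gene pairs 1e-04 and 0.00015). Without the 2 mice farthest from the median it was 0.68, and with the slide also subtracted 0.67. With the brightest *Higd1a* probe, the second *Bnip3* probe had an *r* of 0.76 and the third, dim one 0.02. The second *Higd1a* probe had 0.70 with the brightest *Bnip3* probe, 0.69 with the second and 0.50 with the third. Of 11895 genes only 9 had a higher *r* with *Bnip3* than *Higd1a* had, and the median gene had 0.23. *Ankrd37* followed *Bnip3* less closely (*r* = 0.54, rho = 0.40, adjusted permutation *p* = 1e-04 and 0.00213), and 1303 genes had a higher *r*. *Car9* deviated opposite to *Higd1a* (*r* = −0.47, rho = −0.45, adjusted permutation *p* = 1e-04 and 0.00045), which was −0.21 with the slide subtracted. All deviations come from the same arrays and share their RNA, dyes and reference.

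**Figure D5:**
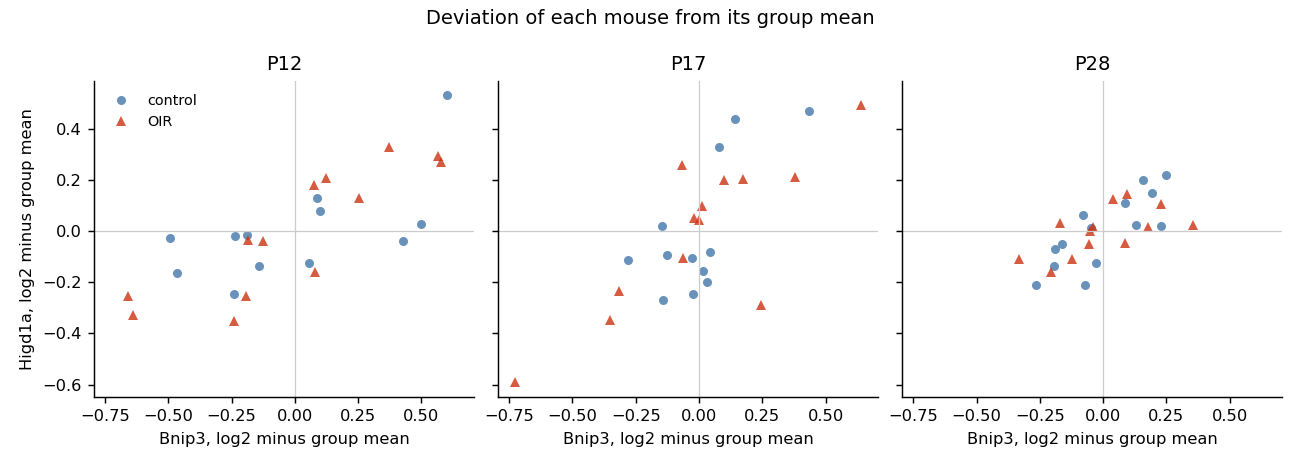
Deviation of each mouse from its group mean on the log2 scale, for *Bnip3* (horizontal axis) and *Higd1a* (vertical axis), on P12, P17 and P28, with control mice as circles and OIR mice as triangles. The points follow a rising line, with *r* = 0.73 over the 77 mice.

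Across all 77 arrays, with the groups left in, the genes most like each gene were sought among 11890 genes measured on at least 50% of the arrays. The 3 closest to *Bnip3* were *Csrp1* (*r* = 0.86), *Aldh1l1* (0.86) and *Pfkfb3* (0.85). *Higd1a* was closest to *Fam162a* (0.82), *Ecel1* (0.81) and *Slc2a1* (0.81), and *Ddit4* to *Tmem143* (0.74), *Slc2a1* (0.74) and *Jcad* (0.68). For *Ankrd37* they were *Egfl7* (0.75), *Selenbp1* (0.73) and *Slc16a3* (0.73). *Ndrg1* had *Hmgn2* (0.94), *Tmem86a* (0.91) and *Hmgb3* (0.91), and 4 genes in all above 0.9. The dim *Car9* had 357 genes above 0.9, led by *Ube2c* (0.97), *Tgfb1* (0.97) and *Gsdmd* (0.97), against 0 for *Bnip3*, *Higd1a*, *Ddit4* and *Ankrd37*. These are descriptions over samples that share age, oxygen and reference.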

How the data were processed

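RNA of the pooled retinas of 1 mouse (Cy3) and universal mouse reference RNA (Cy5) were measured on each of 77 Agilent two-color arrays. The authors deposited scanner files of Agilent Feature Extraction, with signals and local backgrounds as intensity values, and a table of log2 ratios. Per the file headers the deposited intensity values used here were not normalized, while the deposited log2 table equals log2 Cy3 over Cy5 of the processed signals within 0.001 for at least 99.7% of the probes of an array. GeneSpring settings are not given in the sources used here, and no p-values or fold changes of the authors were used.

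Median signals were corrected with normexp (limma 3.58.1, R 4.3.3, offset 50) and loess was then applied to the log2 ratios array by array. Control spots and outlier spots (0.290 to 0.582% per array) had weight 0, outliers were then left out and spots of a probe averaged. For each day the OIR mice were tested against the control mice with the moderated statistic of limma, and changes between days in one model of the 6 groups, with Benjamini-Hochberg adjustment over 55681 probes and a threshold of 0.05. No low-signal filter was set, and the number of arrays limits the precision. Where 1 probe stands for a gene it is the one with the brightest mean retina signal. All probes of the 6 genes are named, with up to 4 called genes per list and day and the 3 most similar genes per gene. Probe sequences were not used. Promoters came from RefSeq (GRCm38.p6), and figures were drawn with matplotlib 3.10.9. The procedure was tested on simulated data. A gene of the lists is not reported here and was left out of their counts. The genes and lists were chosen with earlier results of these data known. Alternatives were the deposited ratios, slide or scan day as a block, no background subtraction, dim probes left out, the retina channel alone and other samples in the fit. Dim probes were those well above background on under 50% of the arrays in every group of the fit, so 1 group could keep a probe.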

Additional observations from a re-analysis of the deposited data

Results flagged for a closer look

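The OIR effect differed between days by a test of the difference itself for 4 probes from P12 to P17. These were *Bnip3* with its brightest probe (0.89) and its second probe (0.82), *Ankrd37* (0.41) and the brightest *Higd1a* probe (0.62), all on the log2 scale and all higher on P17. The third *Bnip3* probe and the second *Higd1a* probe did not pass this test. From P17 to P28 the difference was −0.82 for the brightest *Bnip3* probe. Both tests use the P17 mice.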

How the results depend on the processing

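Of the results for single probes of the 6 genes under the 7 alternatives, 395 kept their direction and side of the threshold, 23 newly passed it, 9 no longer passed, 13 changed sign or size without a call on either side and 0 changed sign with a call. The number of probes called on P12 and P28 was 0 under every alternative. On P17 it was 3 or 4, except 5 with the scan day as a block and 5 without background subtraction. For the change of the effect from P12 to P17 it was 4 under each. The change from P17 to P28 was the least stable, with 1 probe as reported and without background subtraction, 0 with the deposited ratios and in the retina channel alone, 2 with other samples in the fit, 3 with dim probes left out, and 4 with the slide and 4 with the scan day as a block. The cause was not tested. Among list genes, 2 changed direction with the deposited ratios for control mice from P17 to P28, *Bhlhe40* (0.36) and *Car2* (−1.17), and the cause was not tested. Over all probes, calls on P17 ranged from 631 as reported and 677 with other samples in the fit to 1691 in the retina channel alone and 1471 with the deposited ratios, on P12 from 12 to 40 and on P28 from 34 to 159. For the change of the effect from P12 to P17 they went up to 972, from 0.48% of all probes as reported, and for that from P17 to P28 from 147 to 566. For control mice they ranged from 419 to 1759 from P12 to P17, and from 6676 to 10963 from P17 to P28. No paired analysis was possible because the replicate numbers are names of single mice and pair no OIR mouse with a control mouse. The slide was fitted as a block. Low signal limits *Car9* and the third *Bnip3* probe, which were not well above background on all arrays.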
